A study of Gallus gallus with 14 samples.

Results

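Cadherins and protocadherins are adhesion proteins of the cell surface. The family described here comprised the 45 genes, of 18631 in the deposited table, whose symbol starts with CDH and a digit or with PCDH. Of these, 19 were cadherins (CDH) and 26 were protocadherins (PCDH), and 32 of the 45 reached the expression minimum for testing. Transcript levels were measured by total RNA sequencing in whole retinas of wild-type White Leghorn chicks. In the 7 lens retinas (46, 47, 48, 51, 53, 54 and 55), a -10 D lens had been worn over the eye for 6 days from the age of 3 days, a treatment that makes the growing eye longer and myopic. The 7 control retinas (57, 58, 59, 62, 63, 64 and 65) came from the same strain and genotype, and the labels do not say whether their birds wore any frame without a lens. The labels do not say either whether the 14 retinas came from 14 birds. The p-values set the group difference against the spread between these samples, which were treated as independent. All 14 retinas carry the age label postnatal day 3. The comparison asks whether lens wear was accompanied by a change in the transcripts of this adhesion family.

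Classical cadherins bind like cadherins on the neighbouring cell in the presence of calcium and are tied through catenins to the actin cytoskeleton. Type I cadherins such as N-cadherin hold the retinal epithelium together, and type II cadherins are expressed in subsets of retinal neurons and layers, where in mice some of them guide bipolar cell processes to their sublaminae. Protocadherins lack the catenin-binding tail. The non-clustered delta protocadherins signal to the cytoskeleton by other routes, and the clustered ones (alpha, beta and gamma) give single neurons different surface identities, which in mouse starburst amacrine cells serve self-avoidance. CDH23 and PCDH15 form the tip links of hair cells and are genes of Usher syndrome, in which people lose hearing and photoreceptors.

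No member of the family passed the test between lens and control retinas. With limma (Benjamini-Hochberg adjusted p under 0.05) 0 of 32 tested members were called, where 2.76% of all 11132 tested genes were, and 0 of 32 were called by an exact permutation test per gene (background 1.53%). The lens and control values overlapped for all 32 tested members, while they did not overlap for 1.53% of all tested genes. Over all genes both counts were 170, as the permutation test of 7 against 7 retinas called only genes without overlap. Its 0 among the members therefore follows from their overlap and is no separate result. At an unadjusted p under 0.05 there were 7 of 32 members (21.9%, background 16.1%). Of these 7, 6 had a lower level in lens retinas (background 12.5%) and 1, CDH18, a higher one (background 3.67%). The smallest adjusted p was 0.0702, for PCDH1. The same 7 members had an unadjusted p under 0.05 in the permutation test. Which members had an unadjusted p under 0.05 depended on the scaling, while these 7 kept their direction in all alternatives. After trimmed-mean (TMM) scaling 6 of 32 members had an unadjusted p under 0.05 (background 13.6%), 4 lower and 2 higher (CDH18 and PCDHAC2). In whole retinas, fewer cells of a type and less RNA per cell cannot be told apart.

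The differences were small. The median log2 fold change, lens minus control on the log2(CPM + 1) scale, was -0.046 over the 32 members and -0.038 over all tested genes. The median absolute log2 fold change was 0.060 in the family and 0.074 over all tested genes. For 20 of 32 members the 95% interval of the difference lay within 1.2-fold in either direction, and for 32 of 32 within 1.5-fold. This scale shrinks the differences of low genes, and with a pseudocount of 0.1 CPM in place of 1 the interval lay within 1.5-fold for 30 of 32. The fold change was positive for 11 members and negative for 21, against 3891 positive and 7241 negative over all tested genes. After trimmed-mean (TMM) scaling the split of the members was 15 to 17, and the median over all tested genes was -0.0027.

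**Figure D1:**
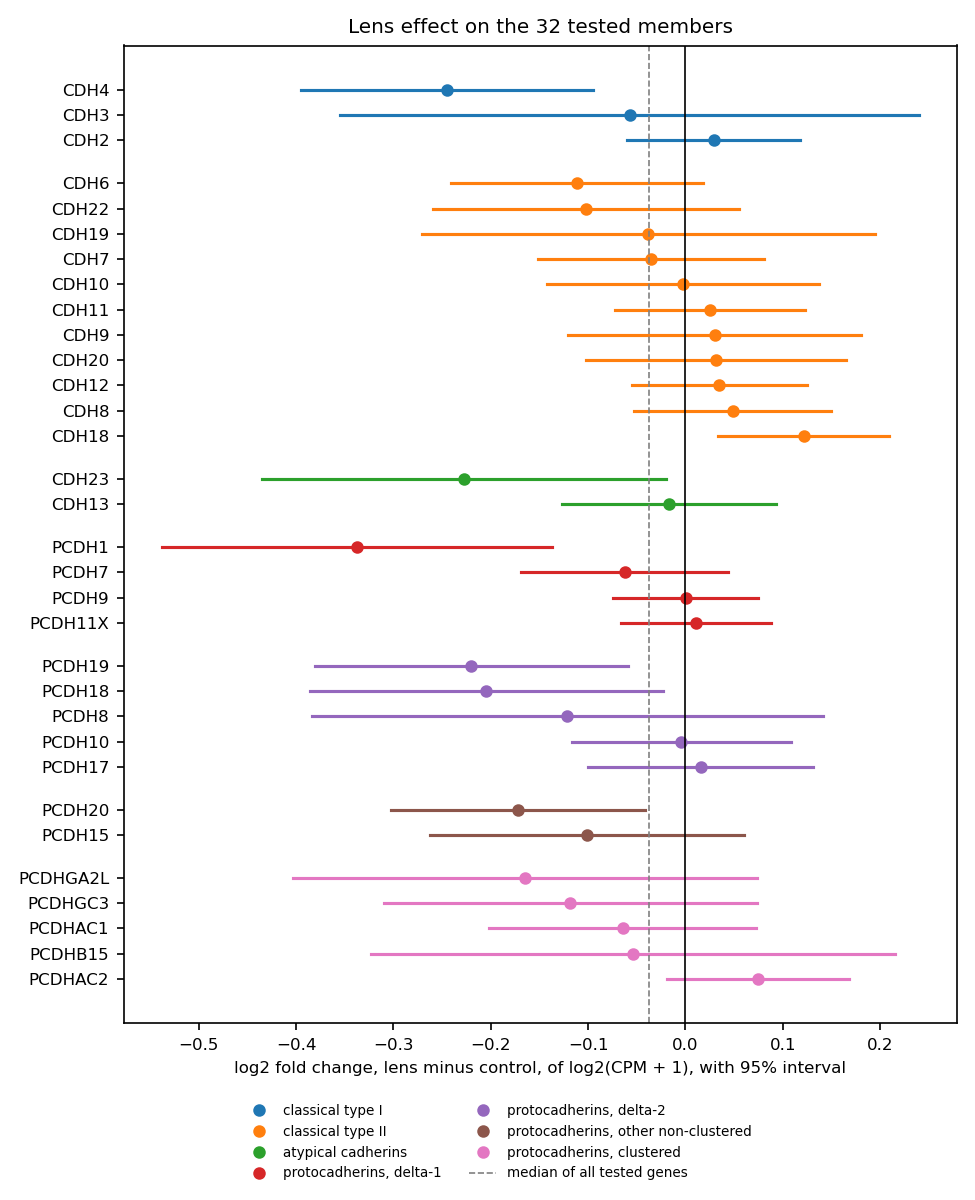
Each point is the log2 fold change (lens minus control, of log2(CPM + 1)) of 1 tested gene, with its 95% interval from limma over 7 lens and 7 control retinas, grouped by class; the dashed line is the median of all 11132 tested genes (-0.038). Most intervals include 0, and those of PCDH1, CDH4, PCDH19, PCDH20, PCDH18 and CDH23 on the left and of CDH18 on the right do not, before adjustment over all genes.

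Levels are given as CPM, read counts scaled to library size. The libraries held 32.3 to 42.6 M reads by the steps between low CPM values, and CDH2, for example, rested on 1608 to 2371 reads per library. Mean depth was 39.1 M ± 3.26 (SD, n = 7) in lens and 35.6 M ± 2.31 (SD, n = 7) in control libraries. Lens 48, lens 55 and control 65 lacked W-linked transcripts. As a retina should, all libraries held photoreceptor transcripts. The summed level of the photoreceptor marker list ranged from 789.9 to 1208 CPM in lens and from 868.6 to 1119 CPM in control retinas. Pigment epithelium markers summed to 33.8 to 42.8 CPM in lens and 36.2 to 41.3 CPM in control retinas, with 2 of 10, TYR and MLANA, at or under 0.1 CPM. Most of that sum was MITF (17.7 CPM in lens, 19.0 CPM in control on average) and OCA2 (12.7 and 12.2 CPM). Vessel and choroid markers summed to 47.3 to 67.1 CPM in lens and 48.7 to 70.4 CPM in control retinas, with 4 of 9 at or under 0.1 CPM. Nearly all of it was KDR (38.7 CPM in lens, 38.4 CPM in control on average) and PECAM1 (17.1 and 19.4 CPM). Lens and ciliary body markers summed to at most 8.31 CPM, with 7 of 12 at or under 0.1 CPM, muscle markers to at most 0.207 CPM and microglial markers to at most 7.33 CPM.

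Among the type I classical cadherins, CDH2 (N-cadherin, chromosome 2, 104786665 to 104900469, minus strand, GRCg6a as for all positions here) holds the neural retina together at its adherens junctions. It measured 50.7, 52.9 and 57.5 CPM at the lowest, median and highest lens retina, and 47.4, 51.9 and 57.2 CPM at those of control. The ranges lay nearly on top of each other. The log2 fold change was 0.03 ± 0.042 (SE, limma adjusted p = 0.80), with an interval from 0.96-fold to 1.09-fold.

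CDH4 (R-cadherin, chromosome 20, 7236143 to 7650779) is known as retinal cadherin. Its lowest, median and highest levels were 15.3, 17.3 and 19.3 CPM in lens retinas and 17.3, 20.2 and 22.7 CPM in control retinas. All 7 lens retinas lay below the control median and 4 lay below every control retina, but the groups overlapped. The mean was 16.9 CPM ± 1.54 (SD, n = 7) in lens and 20.3 CPM ± 2.23 (SD, n = 7) in control retinas. The log2 fold change of -0.25 ± 0.071 (SE, 95% interval -0.40 to -0.10) did not pass the test (limma adjusted p = 0.0768). It passed without lens 55, the highest lens retina (limma adjusted p = 0.0364), and without control 58 (limma adjusted p = 0.0467). It also passed when W-linked expression was a covariate (limma adjusted p = 0.0498). Over all tested genes, 3.92%, 2.22% and 3.67% were called in these fits, in that order, against 2.76% in the main fit.

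CDH3 (P-cadherin) measured 2.62 CPM ± 0.685 (SD, n = 7) in lens and 2.80 CPM ± 0.834 (SD, n = 7) in control retinas. CDH1 (E-cadherin, the main cadherin of epithelia) lies 557 bases from CDH3 on chromosome 11. It was close to undetected, since 7 of 14 libraries had 0 reads and the others at most 2 reads, 6 in all in lens and 5 in all in control libraries. The smallest level that 3 reads in a library allow was 0.0705 to 0.0928 CPM, so CDH1 was not detectable above that limit and was not tested.

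The 11 tested type II cadherins had a median log2 fold change of 0.03, between -0.11 for CDH6 and 0.12 for CDH18, against -0.04 over all tested genes. CDH18 (chromosome 2, 74188539 to 74446631), a type II cadherin of the nervous system, measured 183, 196 and 205 CPM at the lowest, median and highest lens retina and 159, 178 and 189.5 CPM at those of control. In 5 of 7 lens retinas it lay above every control, and control 62 was the lowest of all 14. The means were 195 CPM ± 8.04 (SD, n = 7) in lens and 179 CPM ± 10.5 (SD, n = 7) in control retinas, a log2 fold change of 0.12 ± 0.042 (SE, limma adjusted p = 0.143). It passed after quantile normalization (limma adjusted p = 0.0365) and after scaling to a common sum over the listed genes (limma adjusted p = 0.0493), and not with TMM factors.

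Of its neighbours on chromosome 2, the type II cadherin CDH12 measured 47.95 CPM ± 2.86 (SD, n = 7) in lens and 46.7 CPM ± 1.88 (SD, n = 7) in control retinas. CDH10 measured 33.7 CPM ± 3.19 (SD, n = 7) in lens and 33.7 CPM ± 3.21 (SD, n = 7) in control retinas. CDH9, which in mice directs a type of bipolar cell to its sublamina, measured 10.02 CPM ± 0.942 (SD, n = 7) and 9.80 CPM ± 1.04 (SD, n = 7) in lens and control retinas. None of these 3 differed beyond the spread between retinas. CDH6 (cadherin-6B in chicken) measured 40.1, 42.6 and 49.0 CPM at the lowest, median and highest lens retina and 40.5, 47.4 and 52.0 CPM at those of control, with 3 lens retinas below every control (limma adjusted p = 0.394).

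CDH8, a bipolar cell cadherin in mice, and CDH11 lie on chromosome 11. CDH8 measured 85.1, 90.6 and 100.5 CPM at the lowest, median and highest lens retina and 79.6, 87.9 and 94.9 CPM at those of control. CDH11 measured 46.5, 51.1 and 55.002 CPM in lens retinas and 45.9, 50.2 and 55.1 CPM in control retinas, again lowest, median and highest. Both had wide overlap (limma adjusted p = 0.672 and 0.847). CDH7 (33.7 CPM ± 2.51 in lens, 34.6 CPM ± 2.47 in control, SD, n = 7 each) and CDH20 (7.47 CPM ± 0.544 in lens, 7.29 CPM ± 0.602 in control, SD, n = 7 each) differed by less than 1 SD. CDH22 measured 8.51 CPM ± 0.782 (SD, n = 7) in lens and 9.23 CPM ± 1.08 (SD, n = 7) in control retinas, and CDH19, known from Schwann cells, 1.67 CPM ± 0.47 and 1.73 CPM ± 0.323 (SD, n = 7 each). CDH5, the cadherin of blood vessel lining, had 19 reads in all over the lens and 8 over the control libraries, with 7 of 14 libraries at 0 and 10 of the reads in lens 47. Together the 16 classical cadherins summed to 596 CPM ± 18.9 (SD, n = 7) in lens and 582 CPM ± 22.0 (SD, n = 7) in control retinas.

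**Figure D2:**
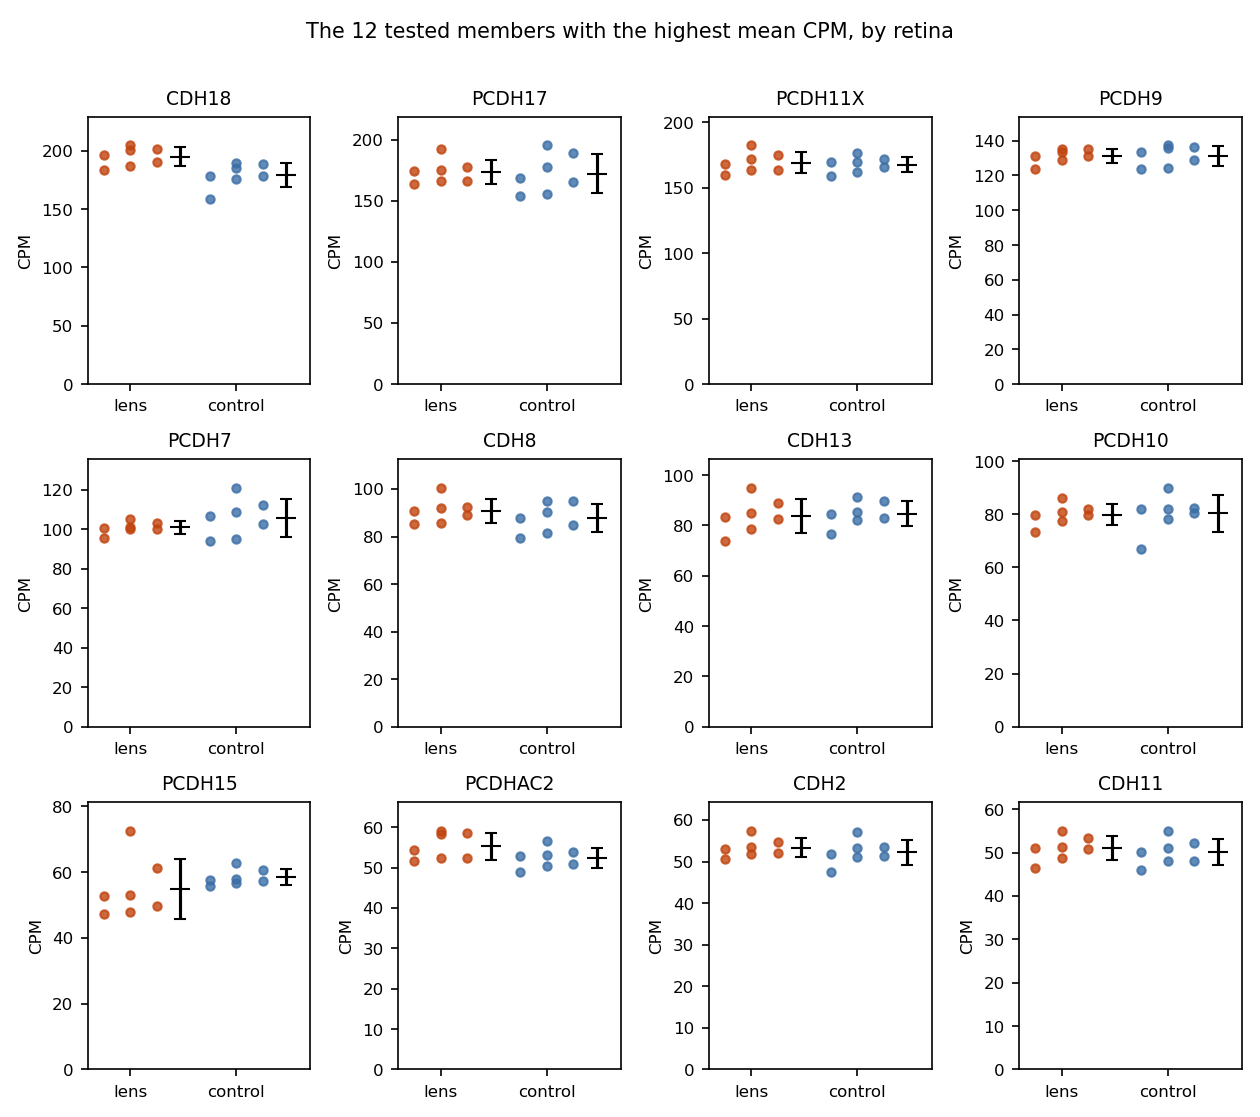
CPM (vertical axis, from 0) of the 12 tested genes of the family with the highest mean CPM, with 1 point per retina, lens left and control right, and the mean with SD as a black bar (n = 7 each). The groups overlap in every panel; CDH18 has 5 lens retinas above all controls, and PCDH15 has 5 lens retinas below all controls and 1 above.

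CPM grows with transcript length as well as with transcript number, and lengths were not used here, so levels are compared between groups and not between genes. Atypical cadherins lack the classical tail. CDH13 (T-cadherin), which is held in the membrane by a lipid anchor, measured 74.0, 83.3 and 94.9 CPM at the lowest, median and highest lens retina and 76.5, 84.7 and 91.3 CPM at those of control (limma adjusted p = 0.917). CDH23 measured 1.31, 1.74 and 1.91 CPM in lens retinas and 1.29, 2.15 and 2.68 CPM in control retinas, in the same order. All 7 lens retinas lay below the control median, yet the lowest of all was control 57. The log2 fold change was -0.23 ± 0.099 (SE, limma adjusted p = 0.26) at a level of at most 104 reads per library. CDH17, a cadherin of the gut, had 3 reads in all lens libraries together and 0 in control, both at or under the limit.

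PCDH15 (chromosome 6, 6627534 to 7305342), the partner of CDH23 in tip links, is also found in photoreceptors. It measured 47.4, 52.9 and 72.7 CPM at the lowest, median and highest lens retina, and 55.9, 57.7 and 62.8 CPM at those of control. The lens retinas lay on both sides of the controls: 5 below every control, lens 51 within them at 61.3 CPM and lens 53 above them. On average the difference was small, with a log2 fold change of -0.10 ± 0.077 (SE, limma adjusted p = 0.563). PCDH15 overlaps SIRT1 on the other strand by 1442 bases, and SIRT1 measured 15.01 CPM in lens and 16.5 CPM in control retinas. The libraries came from a kit that keeps strand, and the strand setting of the counting is not given in the sources used here. Besides 2 clustered genes described below, 7 further tested members overlap a listed gene, each on the other strand and with a partner under 1 CPM.

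The 10 tested partners of CDH23 and PCDH15 in the Usher protein network had a median log2 fold change of 0.04. ADGRV1, a large adhesion receptor of this network whose gene lies on chromosome Z, measured 312 CPM ± 86.5 (SD, n = 7) in lens and 263 CPM ± 59.01 (SD, n = 7) in control retinas (limma adjusted p = 0.479). Its 3 highest values were those of the libraries lacking W-linked transcripts, 468 CPM in lens 48, 401 CPM in lens 55 and 396 CPM in control 65. The other lens retinas held ADGRV1 at 249.9 to 282 CPM and the other control retinas at 225 to 257 CPM. Without those 3 libraries the log2 fold change was 0.12 ± 0.045 (SE, limma adjusted p = 0.192). The myosin MYO7A, which carries the Usher proteins, measured 80.7 CPM ± 8.32 and 77.8 CPM ± 8.82 (SD, n = 7 each) in lens and control retinas.

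The delta-1 protocadherins were 4 genes, all tested, and 3 of them differed by less than 1 control SD. PCDH9 measured 124, 131 and 136 CPM at the lowest, median and highest lens retina and 124, 133 and 137 CPM at those of control. Its interval, 0.95-fold to 1.05-fold, was the narrowest of the delta-1 genes. PCDH11X measured 159, 168 and 183 CPM in lens retinas and 159, 169.6 and 177 CPM in control retinas, in the same order. PCDH7 measured 95.4, 101 and 105 CPM in lens retinas and 93.9, 107 and 121 CPM in control retinas. All 7 lens values of PCDH7 lay inside the control range and below the control median (limma adjusted p = 0.591).

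PCDH1 (chromosome 13, 2787812 to 2837442) was the fourth delta-1 gene and is an adhesion protein also known from airway epithelium. Among the tested members it had the most negative fold change on the log2(CPM + 1) scale. It measured 12.5, 15.2 and 19.3 CPM at the lowest, median and highest lens retina and 16.5, 18.3 and 23.3 CPM at those of control. In 6 of 7 lens retinas it lay below every control, and lens 55 lay above 4 of the controls. The means were 15.4 CPM ± 2.07 (SD, n = 7) in lens and 19.7 CPM ± 3.14 (SD, n = 7) in control retinas. The log2 fold change of -0.34 ± 0.095 (SE, 95% interval -0.54 to -0.14) did not pass the test (limma adjusted p = 0.0702). It passed without lens 55 (limma adjusted p = 0.021) and with W-linked expression as a covariate (limma adjusted p = 0.0451). In these fits 3.92% and 3.67% of all tested genes were called, against 2.76% in the main fit.

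The 5 delta-2 protocadherins, some of which recruit the WAVE actin regulator through their tails, had a median log2 fold change of -0.12. PCDH10 (OL-protocadherin) measured 73.2, 79.8 and 85.9 CPM at the lowest, median and highest lens retina and 66.7, 82.1 and 89.9 CPM at those of control. PCDH17, found at synapses in mice, measured 164, 174 and 192 CPM in lens retinas and 154, 168 and 195 CPM in control retinas, in the same order. In both the lens values lay within the control range. PCDH19, whose mutations cause epilepsy in girls, measured 12.1, 13.6 and 14.9 CPM in lens retinas and 12.6, 16.2 and 19.2 CPM in control retinas. All 7 lens retinas lay below the control median and 2 below every control, with a log2 fold change of -0.22 ± 0.076 (SE, limma adjusted p = 0.149). PCDH18 measured 3.15 CPM ± 0.345 (SD, n = 7) in lens and 3.81 CPM ± 0.571 (SD, n = 7) in control retinas (log2 fold change -0.20 ± 0.086, SE, limma adjusted p = 0.246). PCDH8 (called arcadlin in rats), near the expression minimum, measured 1.39 CPM ± 0.429 (SD, n = 7) and 1.60 CPM ± 0.415 (SD, n = 7) in lens and control retinas.

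PCDH20 (chromosome 1, 163198027 to 163204709), a further non-clustered gene, measured 24.2, 27.7 and 30.9 CPM at the lowest, median and highest lens retina and 28.4, 30.8 and 34.5 CPM at those of control. In 4 lens retinas it lay below every control. Its log2 fold change was -0.17 ± 0.062 (SE, limma adjusted p = 0.163). PCDH12, a protocadherin of blood vessel lining, had 1 read in each group.

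**Figure D3:**
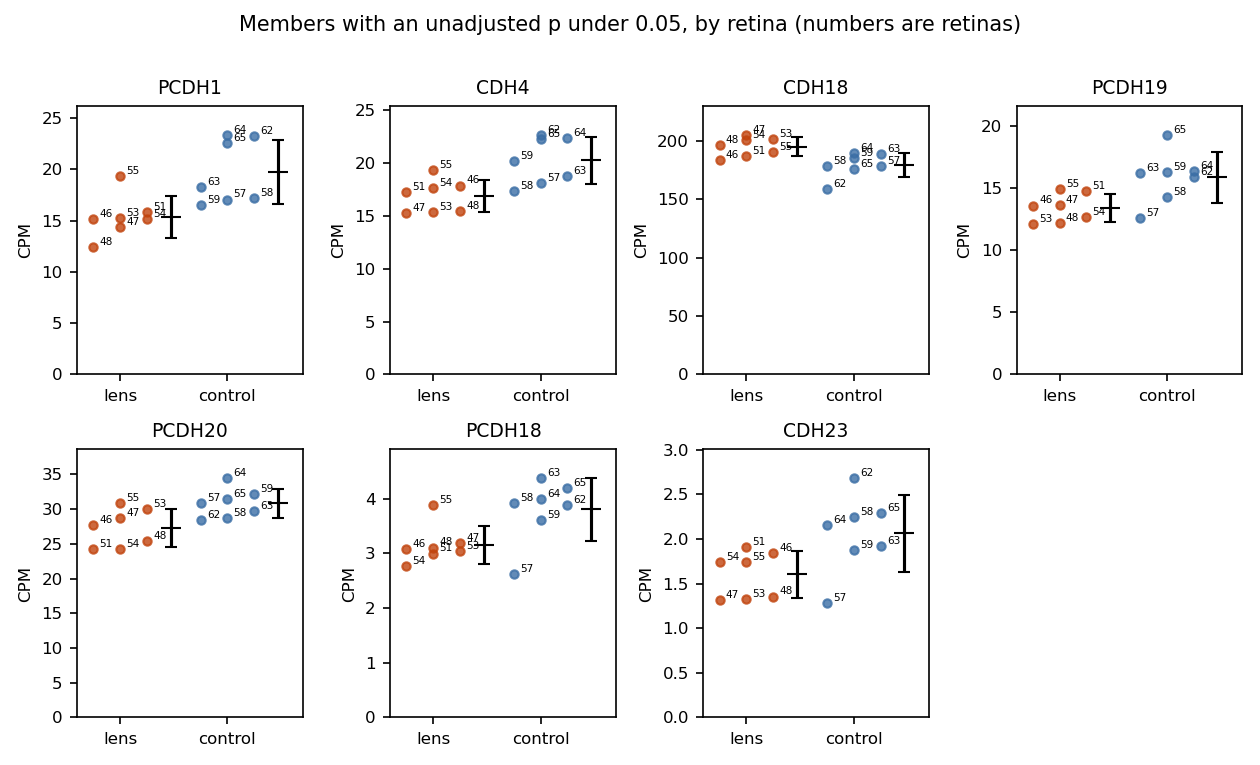
CPM (vertical axis, from 0) of the 7 genes of the family with an unadjusted p under 0.05, with 1 point per retina labelled by its number, lens left and control right, and the mean with SD as a black bar (n = 7 each). None passed after adjustment; lens 55 is the highest lens retina for PCDH1, CDH4, PCDH19, PCDH20 and PCDH18.

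The 14 clustered protocadherin rows lie on chromosome 13. Of the 8 alpha rows, 6 begin at base 1336006 on the minus strand, as alpha transcripts share their last exons. For 13 of the 14 clustered rows the values came out as whole reads (within 0.05 read) in at most 3 of 14 libraries, against 14 of 14 for PCDHGC3. How reads were split between these rows is therefore uncertain. Non-whole values were not particular to clustered rows. The abundant non-clustered PCDH17 (3 of 14), CDH18 (4), PCDH9 (5), PCDH11X (8), PCDH7 (9) and CDH8 (12) also fell short of 14. Of the 32 tested members, 22 had whole reads in 14 of 14 libraries. PCDHAC2 measured 51.6, 54.4 and 59.2 CPM at the lowest, median and highest lens retina and 48.9, 52.8 and 56.6 CPM at those of control (limma adjusted p = 0.432). PCDHAC1 measured 23.9 CPM ± 2.25 (SD, n = 7) in lens and 25.03 CPM ± 2.19 (SD, n = 7) in control retinas. PCDHA2, PCDHA4, PCDHA7, PCDHA11, PCDHA12 and PCDHA13, the 6 other alpha rows, averaged under 1 CPM in each group and were not tested. The sum of all alpha rows, which does not depend on a split among them, was 82.1 CPM ± 4.86 (SD, n = 7) in lens and 80.4 CPM ± 2.67 (SD, n = 7) in control retinas.

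Among gamma rows, PCDHGC3 measured 25.1, 29.2 and 39.3 CPM at the lowest, median and highest lens retina and 26.6, 31.4 and 39.4 CPM at those of control. The highest values were those of lens 55 and control 62. PCDHGA2L measured 15.6, 23.9 and 26.3 CPM in lens retinas and 19.1, 24.6 and 32.9 CPM in control retinas, in the same order, again with control 62 highest. Neither passed (limma adjusted p = 0.572 and 0.517). PCDHB15 measured 1.15 CPM ± 0.454 (SD, n = 7) in lens and 1.21 CPM ± 0.353 (SD, n = 7) in control retinas. PCDHB14L2, PCDHB4P and PCDHGA2 averaged under 1 CPM and were not tested. All gamma rows together summed to 53.2 CPM ± 6.26 (SD, n = 7) in lens and 58.4 CPM ± 7.16 (SD, n = 7) in control retinas. With every row fitted and no expression minimum, 0 of 45 members passed.

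Within each group, the members did not all have their highest or lowest value in the same retina. Whether members varied together was not tested. The sum of all 45 members ranged from 1538 to 1644 CPM in lens and from 1529.8 to 1697 CPM in control retinas. Lens 55 was the highest lens retina for 11 of the 32 tested members, and control 64 was the highest control for 11 and the lowest for 0. The TMM factor, set by the levels of all tested genes, was also the highest of its group in lens 55 (1.012) and control 64 (1.035). The share of all genes with their highest value in these libraries was not counted. Control 62 was the highest control for 9 members, with CDH4, CDH22, PCDHGA2L and PCDHGC3 among them, and the lowest for 7, with CDH18, PCDH10 and CDH7 among them. Without lens 48, lens 55 and control 65, 0 of 32 members passed.

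**Figure D4:**
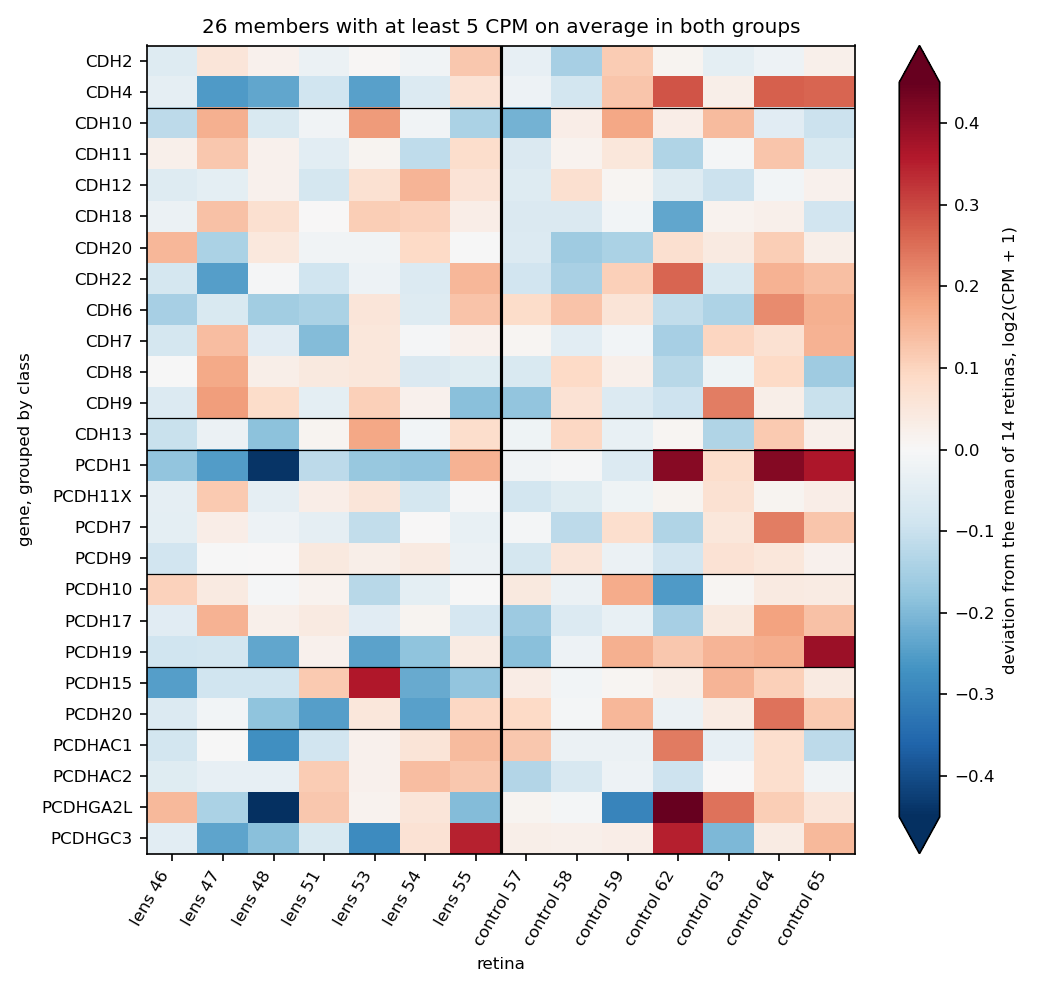
Colour gives the deviation of each retina (columns, lens left of the line and control right) from the mean of 14 retinas on the log2(CPM + 1) scale, for the 26 genes (rows, grouped by class) with at least 5 CPM on average in both groups. Red is higher and blue is lower. CDH4 and PCDH1 are red in control 62, 64 and 65 and paler in lens 55. CDH4 is also pale red in control 59, and most rows stay pale.

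Retinal cell markers differed between the groups beside the 6 members with a lower mean and an unadjusted p under 0.05. Of 5 photoreceptor markers, OPN1LW (red cone opsin) rose (limma adjusted p = 0.0176), and PDE6C (0.00225) and ARR3 (0.00352), both of cones, fell. The 5 amacrine markers summed to 384 to 426 CPM in lens and 428 to 467 CPM in control retinas, without overlap. Most of that sum was GAD1 (302 CPM in lens and 326 CPM in control retinas on average). GAD1 itself overlapped between the groups and did not pass (limma adjusted p = 0.222). Of the 5 amacrine markers 3, TFAP2B, SLC6A9 and SLC32A1, fell (background 1.84% lower). The 3 bipolar markers summed to 276 to 293 CPM in lens and 298 to 330.0 CPM in control retinas, with 0 past the test. Ganglion cell markers summed to 168 to 227 CPM in lens and 190.4 to 241 CPM in control retinas, and 1 of 6, NEFM, fell. Müller glia markers (793.5 to 1074 CPM in lens, 848 to 1009 CPM in control) and oligodendrocyte markers (110.1 to 203 CPM in lens, 115 to 221 CPM in control) overlapped. The 3 horizontal cell markers summed to 113 to 138 CPM in lens and 111 to 133 CPM in control retinas, nearly all of it PROX1 (119.8 CPM in lens, 116 CPM in control on average). ONECUT1 and LHX1, the other horizontal cell markers, had log2 fold changes of -0.28 and -0.32 and did not pass (limma adjusted p = 0.155 and 0.0656). The part of these markers in the values of the 6 members was not tested.

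Of 67 tested related genes of cadherin biology, 2 rose and 1 fell, 4.48% against 2.76% of all tested genes. At an unadjusted p under 0.05 there were 13 of 67 (19.4%, background 16.1%), and the median log2 fold change was -0.06. In the list of catenins and tail partners, 4 of 18 had an unadjusted p under 0.05 (22.2%, background 16.1%). Of the 18, 1 fell (background 1.84% lower). This was TJP1 (ZO-1, chromosome 10, 6474288 to 6629699), a junction scaffold, which measured 81.0, 84.8 and 90.8 CPM at the lowest, median and highest lens retina and 92.6, 95.5 and 98.9 CPM at those of control, without overlap. Its log2 fold change of -0.15 ± 0.035 (SE, limma adjusted p = 0.0247) lost its call in 10 of 29 alternatives, among them TMM factors (limma adjusted p = 0.0863) and the fits in which 1 of lens 46, 47, 48, 51 or control 57, 64 was left out (up to limma adjusted p = 0.0584). CTNNB1 (beta-catenin), one of the catenins through which classical cadherins are tied to actin, measured 111 CPM ± 5.83 (SD, n = 7) in lens and 110.04 CPM ± 3.79 (SD, n = 7) in control retinas.

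Of 14 tested members of the wider cadherin superfamily, 0 passed (background 2.76%) and 1 had an unadjusted p under 0.05 (7.14%, background 16.1%). That was CDHR1, the photoreceptor cadherin, at 98.7 CPM ± 6.04 (SD, n = 7) in lens and 109 CPM ± 7.59 (SD, n = 7) in control retinas (limma adjusted p = 0.134). The giant cadherins FAT1 and FAT3 measured 159 CPM ± 8.96 and 196 CPM ± 13.6 in lens retinas, against 159.7 CPM ± 9.48 and 192 CPM ± 11.8 in control retinas (SD, n = 7 each). Of 8 tested WAVE complex genes 0 passed, with 3 at an unadjusted p under 0.05 (37.5%, background 16.1%). CYFIP2, a WAVE subunit, measured 151 CPM ± 5.73 (SD, n = 7) in lens and 168 CPM ± 10.9 (SD, n = 7) in control retinas (limma adjusted p = 0.0656). CYFIP2 passed in 3 alternatives, with a filter at 5 CPM (limma adjusted p = 0.0486), without lens 46 (limma adjusted p = 0.0484) and without control 65 (limma adjusted p = 0.0405), while its adjusted p was 0.262 in limma with TMM factors. Of 10 tested regulators of clustered protocadherins, such as CTCF, 0 passed (background 2.76%) and 0 had an unadjusted p under 0.05 (background 16.1%). Of 7 tested shedding protease genes, 1 rose (background 0.916% higher), PSEN2 (presenilin-2, a subunit of the gamma-secretase that cuts cadherin stubs), at 32.7 CPM ± 2.08 (SD, n = 7) in lens and 28.6 CPM ± 1.38 (SD, n = 7) in control retinas. In that list 4 of 7 had an unadjusted p under 0.05 (57.1%, background 16.1%). Besides PSEN2 these were ADAM10, ADAM17 and ADAM9, all lower in lens retinas (log2 fold changes -0.090, -0.11 and -0.20). None of those ADAM genes passed (limma adjusted p = 0.284, 0.295 and 0.192). The PSEN2 call (limma adjusted p = 0.0404) was lost in 15 of 29 alternatives, among them 10 of the 14 fits that left out 1 library (lens 46, 47, 48, 51 or 54, control 57, 58, 59, 64 or 65).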

How the data were processed

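Total RNA of 7 lens and 7 control retinas was depleted of ribosomal RNA and made into stranded libraries, per the labels' protocols. Per the submitters' processing notes, STAR and Partek were used with GRCg6a as the genome build, and no tool versions are stated there. The authors deposited 1 table of read counts scaled to library size (CPM), to every entry of which 0.0001 had been added, which was subtracted here for read numbers. The offset and the read totals were worked out from the values, of which 93.1 to 94.1% per library came out as whole reads.

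Values were tested as log2(CPM + 1) with limma 3.58.1 in R 4.3.3 (empirical Bayes with an intensity trend) over the 11132 genes that reached 1 CPM in 7 or more of the 14 samples, with Benjamini-Hochberg adjustment over all of them and a threshold of 0.05. The procedure was tested on simulated data. Per gene, an exact two-sided permutation test over 3432 assignments was an alternative. Tables and figures were made in Python 3.11.15 with matplotlib 3.10.9. Alternatives were other pseudocounts, filters, scalings, priors, covariates and sample sets. Intervals from limma are 95% intervals of the difference.

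The members, gene lists and marker lists were chosen with earlier results of these data known. Every member is named, those past the threshold and the 12 with the highest mean CPM with their values by sample. Of the related genes, those past the threshold were to be named. CTNNB1, CDHR1, FAT1, FAT3, CYFIP2, ADGRV1, MYO7A, ADAM10, ADAM17 and ADAM9 were added after their values were seen. So were the members with an unadjusted p under 0.05 and the marker genes. Of 45 symbols, 38 matched a RefSeq gene table of another build, which gave no coordinates. The blood marker list had 0 of 6 genes under its symbols in the table and was not used. One related gene past the threshold is not reported here.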

Additional observations from a re-analysis of the deposited data

Results flagged for a closer look

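In 2 of 64 groups of 7 values examined (32 tested members in lens and in control retinas), 1 retina stood apart from the others by more of the group's range than Dixon's 95% critical value, and chance flags about 1 in 20 such groups. PCDH18 measured 3.88 CPM in lens 55, against 2.77 to 3.19 CPM in the other lens retinas. PCDHB15 measured 1.96 CPM in control 62, against 0.896 to 1.26 CPM in the other control retinas.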

How the results depend on the processing

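Of 32 tested members, 23 kept their direction in all alternatives. The number called was 0, and it was 1 (CDH18) after quantile normalization and after scaling to a common sum. It was 2 (CDH4 and PCDH1) with the W-linked covariate. With 1 library left out it was 0 to 2, with 2 without lens 55 (CDH4 and PCDH1) and 1 without control 58 (CDH4). Over all tested genes, 2.76% were called in the main fit, 3.67% with the W-linked covariate and 3.92% without lens 55. That share was 2.51% after quantile normalization, 2.48% with a common sum and 2.22% without control 58. The number of related genes called was 3, and it was 1 without an intensity trend, 1 without the 3 libraries lacking W-linked transcripts, and 1 to 3 when 1 library was left out. With TMM factors, median-of-ratios factors, no filter, a filter at 0.1 CPM and the exact permutation test it was 2 each time. It was 4 with a filter at 5 CPM, which added CYFIP2, and CYFIP2 was also called without lens 46, where TJP1 and PSEN2 were not, and without control 65, where PSEN2 was not. The count of members with an unadjusted p under 0.05 was 5 to 9. It was 6, with 4 lower and 2 higher, with TMM factors, with median-of-ratios factors and with a common sum. The cause of these changes was not tested.

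Log2 fold changes close to 0 changed sign. CDH10 was 0.037 with TMM scaling, 0.040 by median-of-ratios scaling, 0.031 after quantile normalization, 0.030 with a common sum, 0.017 with the W-linked covariate and 0.023 without the libraries lacking W-linked transcripts. In the same order of settings, without the covariate, CDH13 was 0.023, 0.026, 0.015, 0.016 and 0.0028, and PCDH10 was 0.035, 0.039, 0.026, 0.028 and 0.0023. CDH7 was 0.0040 with TMM and 0.0070 with median-of-ratios factors. With the code letter of the title as a covariate, PCDH9 was -0.0053 and PCDH10 was 0.00048. With 1 library left out, the log2 fold change ranged from -0.038 to 0.026 for CDH10, -0.10 to 0.018 for CDH19, -0.047 to 0.012 for CDH13, -0.0078 to 0.025 for PCDH11X, -0.014 to 0.014 for PCDH9, -0.047 to 0.024 for PCDH10, -0.010 to 0.047 for PCDH17 and -0.13 to 0.019 for PCDHB15.

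No paired analysis was possible because the lens and control retinas share no replicate number. Members under 5 CPM rest on few reads, and the read split limits the clustered rows. Intervals and read limits cover the values deposited, not isoforms.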

Other observations

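The spread between retinas differed between the groups for 2 abundant members, a comparison made after the values were seen and not tested. PCDH15 had a coefficient of variation of 16.5% in lens and 4.18% in control retinas. PCDH7 had one of 3.07% in lens and 9.10% in control retinas.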
